A study of Mus musculus with 4 samples.

Results

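The cholesterol and fatty acid metabolism genes studied here are 38 genes of sterol synthesis, uptake, efflux and fatty acid synthesis, with their regulators, out of 23305 genes listed for each RNA-seq library. They were chosen by name, as the genes of these pathways that carry a row in the tables. The list was drawn up because Apoe is low in B cells that lack Ets1, so the change of Apoe is given below as a description with no test. The question asked of the other 37 genes is whether they share that difference.

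RNA was taken from follicular B cells of the spleen of female mice, sorted as live B220+ CD23-high CD21-low cells without CD80 and without switched isotypes (IgA, IgE, IgG1, IgG2a, IgG2b and IgG3). The WT libraries came from C57BL/6 mice and the Ets1-/- libraries from mice of the mixed background C57BL/6 x 129Sv that lack Ets1 in every cell, with 2 biological replicates per genotype. Since the 2 genotypes also differ in strain, the effects of strain and genotype cannot be told apart, and the sources used here give neither the age of these mice nor the number of spleens per replicate. Cells of an Ets1-/- mouse also developed in an Ets1-/- host, so the comparison is not limited to the effect of Ets1 inside the B cell.

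Expression is given as FPKM, the fragments of a gene scaled to its length and to the mapped reads of the library, so that levels can be compared between genes. Between 10466 and 10713 entries per library reached an FPKM of 1, and the depth of the libraries relative to WT replicate 1 ran from 0.876 to 1.75, judged from the steps between very low values. Ets1 itself was at 231 and 275 FPKM in WT and at 229 and 229.8 FPKM in Ets1-/- B cells. The targeted allele removes only some of its exons, so the level of the whole gene does not check the labels. The defining genes of B cells were high in all libraries, with Ms4a1, which encodes CD20, between 604 and 689 FPKM and Fcer2a, which encodes CD23, between 488 and 664 FPKM. Of 9 markers of follicular B cells none was called, and 1 of them, Cr2, had an unadjusted p under 0.05 in limma. Neutrophil markers were listed as well, with a summed level of 114 and 94.0 FPKM in WT and 2569 and 704 FPKM in Ets1-/- B cells. Of these 9 markers 3 were called higher, against 0.877% of all genes tested. At an unadjusted p under 0.05 in limma 8 were higher, against 6.39% of all genes. All 9 were higher without overlap of the genotypes, against 19.4%. Mpo and Elane, counted among the 8 and the 9, reached a mean of 1 FPKM only in Ets1-/- B cells. They were thus tested only because they are high there, and nothing is read from their direction. Of 7 T cell markers 0 were called and 1 was higher at an unadjusted p under 0.05 in limma, at a summed level of 94.3 to 134 FPKM. Of 8 markers of B1 and plasma cells 0 were called, at a summed level of 114 to 153 FPKM. At an unadjusted p under 0.05 in limma 4 of these 8 were higher (Bhlhe41, Zbtb32, Sdc1 and Prdm1) and 1 was lower (Spn). Prdm1 reached a mean of 1 FPKM only in Ets1-/- B cells, so nothing is read from its direction. Over all genes tested 6.39% were higher and 6.95% lower at that threshold. What part these other transcripts have in the values below was not tested.

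Cells make cholesterol from acetyl-CoA through the mevalonate pathway, which leads to farnesyl diphosphate, then to squalene and on through lanosterol to cholesterol. The pathway is controlled by SREBP transcription factors, encoded by Srebf1 and Srebf2, which Scap carries from the endoplasmic reticulum to the Golgi apparatus when sterols are low and which the Insig proteins hold back when sterols are high. Excess sterol is sensed as oxysterols by the liver X receptors Nr1h2 and Nr1h3, which in macrophages raise the exporters Abca1 and Abcg1 and the apolipoprotein Apoe. Resting B cells need little new membrane, and sterol and fatty acid synthesis rise when lymphocytes are activated to grow.

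The stretches of promoter DNA below are shown because genes with a common control often share short sequence motifs, and because Apoe is the member that differs. Promoter windows of 300 bases, 250 before and 50 after each transcription start, came from a set of RefSeq windows on the GRCm38.p6 build. The set used here held 29 of the 38 genes. It had no window for 9 (Abcg1, Fads1, Fdft1, Fdps, Npc1, Scd1, Scd2, Sqle and Stard4), which does not mean that RefSeq lacks a start for them. Each sequence is written 5′ to 3′ on the strand of its gene, and capitals mark the motif named with it. In the Apoe window none of the 4 motifs searched was found, so it has no capitals.
Apoe (chr7:19699139-19699438, minus strand): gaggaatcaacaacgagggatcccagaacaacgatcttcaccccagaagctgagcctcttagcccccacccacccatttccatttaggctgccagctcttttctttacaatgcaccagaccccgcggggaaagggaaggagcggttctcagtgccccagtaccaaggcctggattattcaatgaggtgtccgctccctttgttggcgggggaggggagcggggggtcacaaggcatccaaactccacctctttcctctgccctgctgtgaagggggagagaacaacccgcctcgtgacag
Nr1h2, Ets sites (chr7:44553916-44554215, minus strand): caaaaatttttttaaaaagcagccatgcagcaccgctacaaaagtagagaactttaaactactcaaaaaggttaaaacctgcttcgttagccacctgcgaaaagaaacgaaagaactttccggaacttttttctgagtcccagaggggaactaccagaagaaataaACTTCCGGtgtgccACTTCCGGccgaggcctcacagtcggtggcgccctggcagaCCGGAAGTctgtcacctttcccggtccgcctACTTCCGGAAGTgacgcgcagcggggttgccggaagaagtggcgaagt
Insig2, Ets site (chr1:121327874-121327921, minus strand): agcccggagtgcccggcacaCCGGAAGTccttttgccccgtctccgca
Hmgcs1, sterol regulatory element (chr13:119690194-119690242, plus strand): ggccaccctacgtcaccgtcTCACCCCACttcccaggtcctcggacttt
Cyp51, CCAAT box (chr5:4104702-4104746, minus strand): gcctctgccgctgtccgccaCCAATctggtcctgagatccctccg
Idi1, CCAAT box (chr13:8885541-8885585, plus strand): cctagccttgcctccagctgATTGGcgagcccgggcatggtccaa

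The 4 motifs were searched on both strands. The CCAAT box (CCAAT), which binds NF-Y, a partner of SREBP at sterol genes, was found for 20 of the 29 genes with a window, or 69.0%, against 41.1% of all 27025 genes with a window. These 20 include most steps of sterol synthesis (Cyp51, Dhcr7, Ebp, Hmgcs1, Hsd17b7, Idi1, Lss, Mvd, Mvk, Nsdhl, Pmvk and Tm7sf2) and the regulators Srebf1, Srebf2, Insig1 and Insig2, but not Apoe. The sterol regulatory element, searched as TCACNCCAC, was found only for Hmgcs1, or 3.45% of the 29 genes against 1.44% of all genes. The E-box (CACGTG), whose letters read the same on both strands, was found for 5 genes, or 17.2% against 8.09%. An Ets site, searched as CCGGAAGT, was found for Insig2 and Nr1h2, or 6.90% against 4.31%. The window of Nr1h2 held 5 such matches, 2 of which overlap on opposite strands, and the windows of Apoe held 0. All 3 windows held for Apoe lacked all 4 motifs. Some genes have several windows, and a gene was counted if any of them held a match. The 29 genes had 42 windows and the 27025 genes had 32851, so the shares by gene are not like for like. By window the CCAAT box was in 21 of the 42, against 37.4% of all windows. The E-box was in 6 (against 7.15%), the Ets site in 2 (3.89%) and the sterol regulatory element in 1 (1.24%). These matches describe letters in a window and say nothing about binding in these cells.

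Apoe was one of the most highly expressed genes of the list in WT B cells and one of moderate level in Ets1-/- B cells. Apoe encodes apolipoprotein E, which carries cholesterol out of cells and binds lipoprotein receptors. Its mm9 position is chr7:20281458-20284515, minus strand. Apoe was at 193 and 219 FPKM in the WT replicates and at 33.5 and 17.7 FPKM in the Ets1-/- replicates, so both Ets1-/- values were far below both WT values. The means were 206 ± 18.9 FPKM (SD, n = 2) and 25.6 ± 11.2 FPKM (SD, n = 2), a WT level 8.06 times the Ets1-/- level. The log2 difference, which is Ets1-/- minus WT on the log2(FPKM + 1) scale throughout, was -3.03 for Apoe, and it lay between -3.47 and -2.58 with each library left out in turn. By mean FPKM Apoe was second to Scd1 among the 38 genes in WT, above Srebf2, and number 11 in Ets1-/- B cells. In sorted bulk RNA, fewer cells of a type and less RNA per cell cannot be told apart, and this holds for every difference below.

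**Figure D1:**
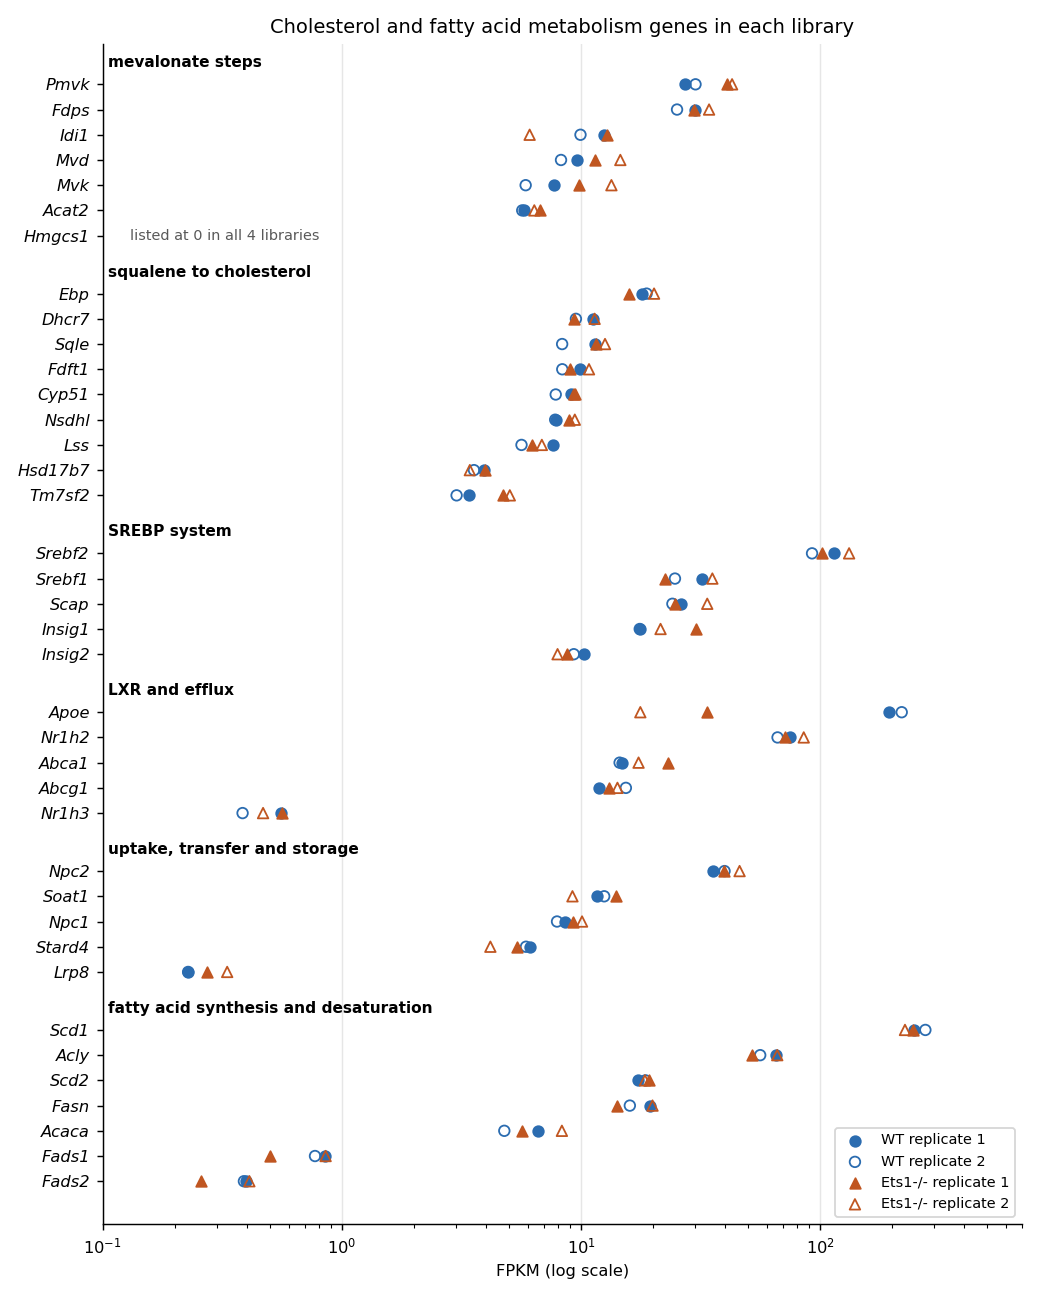
FPKM of the 38 genes on a log axis, by role, with WT libraries as blue circles and Ets1-/- libraries as orange triangles (filled for replicate 1, open for replicate 2). Apoe is the only gene of the list whose Ets1-/- values, 33.5 and 17.7 FPKM, lie several-fold below its WT values, 193 and 219 FPKM; Hmgcs1 is listed at 0 and has no points.

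None of the other 37 genes was called in either direction. Of the 37 genes, 32 reached a mean of 1 FPKM in WT or in Ets1-/- B cells and were tested, and 0 were called lower and 0 higher by limma, with calls at a 2-fold change on the log2(FPKM + 1) scale and a Benjamini-Hochberg adjusted p of 0.05 or less over 10949 genes. Over all genes tested 1.70% were called, 0.822% lower and 0.877% higher. At an unadjusted p under 0.05 in limma, 5 of the 32 were higher (15.6%, against 6.39% of all genes) and 0 were lower (0%, against 6.95%). Nothing is read from these shares, since the list was made with this comparison known.

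The median log2 difference of the 32 genes was 0.14, and that of all genes tested was -0.02. The values ranged from -0.29 for Idi1 to 0.69 for Mvk. With each library left out in turn, the median of the 32 genes lay between 0.05 and 0.23. Both Ets1-/- values were above both WT values for 11 genes, or 34.4%, against 19.4% of all genes tested, and below both for 3 genes (Insig2, Stard4 and Scd1), or 9.38%, against 22.2%. For the remaining 18 genes the genotypes overlapped. The 95% interval of the limma fit lay above -1, which is a 2-fold lower level, for 31 of the 32 genes. The exception was Idi1, with an interval from -1.17 to 0.59. The interval lay within 2-fold in both directions for 29 genes, the other 2 being Mvk (0.15 to 1.24) and Insig1 (0.01 to 1.01). These intervals are per gene and rest on 2 replicates per genotype. A change near the 2-fold minimum is likely to go uncalled, and the lack of calls does not show that the levels of these genes were equal.

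**Figure D2:**
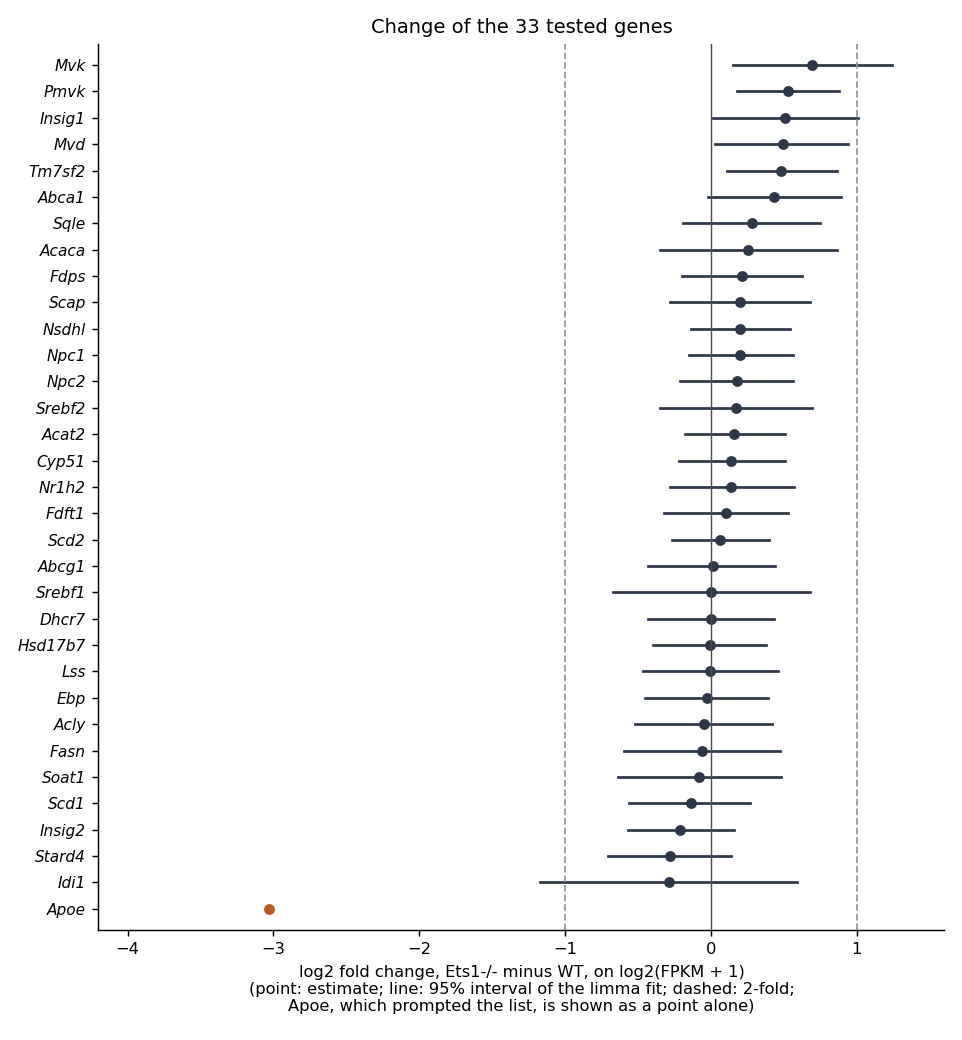
Log2 difference (Ets1-/- minus WT, on log2(FPKM + 1)) of the 33 tested genes in order of size, with the 95% interval of the limma fit as a line and dashed lines at a 2-fold change; Apoe is drawn as a point alone. Apoe lies at -3.03 and the other 32 genes between -0.29 and 0.69.

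Of the 6 tested enzymes of the mevalonate steps, 3 were higher at an unadjusted p under 0.05 in limma, against 6.39% of all genes tested. At that threshold 0 were lower, against 6.95%, and none was called. Mvk, mevalonate kinase, was at 7.68 and 5.87 FPKM in WT and at 9.84 and 13.4 FPKM in Ets1-/- B cells. The log2 difference of 0.69 (standard error, SE, 0.21) was the highest of the list (limma, Benjamini-Hochberg adjusted p = 0.232). Pmvk, phosphomevalonate kinase, the next enzyme of the pathway, was at 27.2 and 30.1 FPKM in WT and at 40.9 and 42.8 FPKM in Ets1-/- B cells. The replicates of Pmvk were close in both genotypes and its log2 difference was 0.53 (SE 0.14; limma, Benjamini-Hochberg adjusted p = 0.171). Mvd, which decarboxylates the product of Pmvk, was at 9.60 and 8.25 FPKM in WT and at 11.4 and 14.6 FPKM in Ets1-/- B cells, a log2 difference of 0.49 (SE 0.18; limma, Benjamini-Hochberg adjusted p = 0.333). For these 3 genes, named for their unadjusted p, the ratios of the means were 1.72, 1.46 and 1.46. Of the 6 tested mevalonate genes 4 were higher without overlap and 0 were lower, against 19.4% and 22.2% of all genes tested. Nothing is read from counts this small.

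None of the other tested mevalonate genes had an unadjusted p under 0.05 in limma. Acat2, the cytosolic thiolase that makes acetoacetyl-CoA, was at 5.79 and 5.68 FPKM in WT and at 6.72 and 6.38 FPKM in Ets1-/- B cells, a small difference without overlap. Fdps, which makes farnesyl diphosphate, was at 30.0 and 25.2 FPKM in WT and at 29.8 and 34.3 FPKM in Ets1-/- B cells, so the genotypes overlapped. Idi1, the isopentenyl diphosphate isomerase, was at 12.5 and 9.95 FPKM in WT and at 12.9 and 6.10 FPKM in Ets1-/- B cells. The Ets1-/- replicates of Idi1 lay on either side of the WT replicates, and its log2 difference went from -0.78 to 0.20 as single libraries were left out. Hmgcs1, the cytosolic synthase before mevalonate, is listed at 0 in all 4 libraries, as is 1 of 79 ribosomal protein genes, so no level is drawn from it.

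The 9 genes that lead from farnesyl diphosphate to cholesterol were expressed at 3.02 to 20.2 FPKM and differed little between the genotypes, with a median log2 difference of 0.10 and a range from -0.03 to 0.48. Tm7sf2, a sterol C14 reductase, was at 3.39 and 3.02 FPKM in WT and at 4.70 and 5.04 FPKM in Ets1-/- B cells. The log2 difference of 0.48 (SE 0.15) did not pass (limma, Benjamini-Hochberg adjusted p = 0.231), although the genotypes did not overlap. Sqle, squalene epoxidase and a rate-limiting step, was at 11.4 and 8.34 FPKM in WT and at 11.5 and 12.6 FPKM in Ets1-/- B cells, where the WT replicates differed by more than the Ets1-/- replicates. Cyp51, the lanosterol demethylase, and Nsdhl, which acts with it on the removal of methyl groups, were also slightly higher without overlap, with means of 8.44 and 9.42 FPKM for Cyp51 and of 7.84 and 9.17 FPKM for Nsdhl.

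For the remaining genes of this segment the genotypes overlapped. The WT and Ets1-/- means were 9.15 and 9.91 FPKM for Fdft1, squalene synthase, 6.63 and 6.54 FPKM for Lss, lanosterol synthase, and 3.75 and 3.71 FPKM for Hsd17b7. Ebp, a sterol isomerase and the highest of the segment in WT, had means of 18.3 and 18.0 FPKM, and Dhcr7, the last reductase before cholesterol, had 10.4 FPKM in both genotypes. The direction of Fdft1, Lss, Hsd17b7, Ebp and Dhcr7 depended on which library was left out. Fdft1 shares 26.9% of its exon bases with exons of Ctsb on the opposite strand, and reads of the pair cannot be told apart without strand.

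In the SREBP system the transcription factors themselves were well expressed and overlapped between the genotypes. Srebf2, the main regulator of sterol synthesis, was at 114 and 92.4 FPKM in WT and at 102 and 132 FPKM in Ets1-/- B cells. Srebf1, which drives fatty acid synthesis and is itself a target of the liver X receptors, was at 31.9 and 24.7 FPKM in WT and at 22.4 and 35.4 FPKM in Ets1-/- B cells, so the Ets1-/- replicates enclosed both WT values. Scap, the escort protein, had means of 25.1 ± 1.37 FPKM (SD, n = 2) for WT against 29.2 ± 6.29 FPKM (SD, n = 2) in Ets1-/- B cells, again with overlap. The values of the retention factors lay in opposite directions. Insig1, which SREBP induces as a feedback, was at 17.6 FPKM in both WT replicates and at 30.2 and 21.5 FPKM in Ets1-/- B cells, a log2 difference of 0.51 (SE 0.20; limma, Benjamini-Hochberg adjusted p = 0.365). Insig2 was at 10.3 and 9.33 FPKM in WT and at 8.78 and 7.98 FPKM in Ets1-/- B cells, a log2 difference of -0.21 (SE 0.14; limma, Benjamini-Hochberg adjusted p = 0.673). Neither was called, and the difference between the 2 genes was not tested.

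The genes of sterol efflux that share with Apoe the control by liver X receptors known from macrophages were not called lower in Ets1-/- B cells. Abca1, which loads cholesterol onto apolipoproteins, was at 14.8 and 14.5 FPKM in WT and at 23.2 and 17.4 FPKM in Ets1-/- B cells. The log2 difference of 0.43 (SE 0.18) had an interval from -0.02 to 0.89 (limma, Benjamini-Hochberg adjusted p = 0.403). Abcg1, which exports sterol to high-density lipoprotein, was at 11.9 and 15.4 FPKM in WT and at 13.1 and 14.2 FPKM in Ets1-/- B cells, where both Ets1-/- values lay between the WT values. The receptor Nr1h2, LXR beta, was at 74.8 and 66.3 FPKM in WT and at 71.2 and 85.3 FPKM in Ets1-/- B cells. The receptor Nr1h3, LXR alpha, was at 0.558 and 0.385 FPKM in WT and at 0.563 and 0.469 FPKM in Ets1-/- B cells, too low to be tested. By FPKM the receptor of these cells was thus mostly Nr1h2 in both genotypes, with means of 70.5 and 78.2 FPKM against 0.472 and 0.516 FPKM for Nr1h3.

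Genes of uptake, transfer and storage were not called either. Npc2 and Npc1, which pass cholesterol out of the lysosome, had WT and Ets1-/- means of 37.8 and 42.8 FPKM for Npc2, with overlap, and of 8.26 and 9.66 FPKM for Npc1, without overlap. Stard4, a sterol carrier of the cytosol that SREBP induces, was at 6.11 and 5.89 FPKM in WT and at 5.39 and 4.18 FPKM in Ets1-/- B cells, a log2 difference of -0.28 (SE 0.17; limma, Benjamini-Hochberg adjusted p = 0.613). Soat1, which esterifies cholesterol for storage, had means of 12.1 ± 0.611 FPKM (SD, n = 2) for WT against 11.6 ± 3.40 FPKM (SD, n = 2) in Ets1-/- B cells. Lrp8, a receptor that binds Apoe, was at 0.228 FPKM in both WT replicates and at 0.274 and 0.332 FPKM in Ets1-/- B cells, too low to be tested.

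The genes of fatty acid synthesis differed little between the genotypes, with a median log2 difference of -0.05 and a range from -0.14 to 0.25 over 5 tested genes. Scd1, the stearoyl-CoA desaturase and the highest gene of the whole list, was at 247 and 275 FPKM in WT and at 245 and 226 FPKM in Ets1-/- B cells. The values of Scd1 did not overlap, but its log2 difference of -0.14 (SE 0.16) was smaller than its SE. Its paralog Scd2, which lies 87.6 kb away on chromosome 19 and may share reads with it, was at 17.3 and 18.6 FPKM in WT and at 19.2 and 18.5 FPKM in Ets1-/- B cells. Acly, which supplies cytosolic acetyl-CoA, had means of 60.7 and 58.9 FPKM, Fasn, the fatty acid synthase, of 17.7 and 17.0 FPKM, and Acaca, the carboxylase that commits acetyl-CoA to fatty acids, of 5.70 and 7.01 FPKM in WT and Ets1-/- B cells, all with overlap. Fads1 and Fads2, the desaturases of polyunsaturated fatty acids, were under 1 FPKM in all libraries, at 0.851 and 0.773 FPKM in WT and 0.502 and 0.856 FPKM in Ets1-/- B cells for Fads1 and at 0.259 to 0.411 FPKM for Fads2.

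By level in WT B cells, 3 of the 38 genes (Scd1, Apoe and Srebf2) had a mean of at least 100 FPKM, 16 lay between 10 and 100, 14 between 1 and 10 and 5 under 1. Of the 37 pairs of neighbors in this order, 20 had overlapping WT values and so did not differ beyond the spread of the replicates. In falling order of the WT mean the highest genes were Scd1, Apoe, Srebf2, Nr1h2, Acly and Npc2. The replicates of a genotype differed by a median of 0.163 (absolute log2 difference) in WT and 0.247 in Ets1-/- B cells over the 32 tested genes, against 0.126 and 0.259 over all genes tested. WT replicate 1 was above WT replicate 2 for 13 of the 15 tested sterol synthesis genes, or 86.7%, against 50.1% of all genes, and Ets1-/- replicate 2 was above Ets1-/- replicate 1 for 11 of them, or 73.3%, against 54.2%. WT replicate 1 and Ets1-/- replicate 2 are the shallower libraries, with relative depths of 1.00 and 0.876 against 1.75 and 1.67. The part of depth in these values was not tested.

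Genes of the same pathways that are not on the list were counted to see whether another step was lower together with Apoe. Over 5 such lists 59 of 69 genes were tested, and limma called 0 lower and 0 higher. At an unadjusted p under 0.05 in limma, 4 were lower and 1 was higher, where the shares over all genes tested were 6.95% and 6.39%, and the median log2 difference was -0.04. Genes with large differences are given here for each list. Of 8 other sterol synthesis enzymes, Sc5d, the lathosterol desaturase, had a log2 difference of -0.45 (SE 0.20) and Aacs, which activates acetoacetate, one of -0.21 (SE 0.17). Sc5d lies 9.5 Mb from Ets1 on chromosome 9. Of 8 factors of SREBP processing, Mbtps2, the site-2 protease, had -0.30 (SE 0.16).

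Of 20 other genes of lipoproteins, liver X receptor targets and oxysterols, 15 were tested. At an unadjusted p under 0.05 in limma 2 were lower in Ets1-/- B cells and 0 higher, against 6.95% and 6.39% of all genes tested. Pltp, a phospholipid transfer protein and like Apoe a target of the liver X receptors in macrophages, was at 22.4 and 31.6 FPKM in WT and at 18.1 and 13.1 FPKM in Ets1-/- B cells. The log2 difference was -0.75 (SE 0.24; limma, Benjamini-Hochberg adjusted p = 0.252). Cyp27a1, which makes 27-hydroxycholesterol, was at 20.6 and 20.1 FPKM in WT and at 13.9 and 11.6 FPKM in Ets1-/- B cells, a log2 difference of -0.64 (SE 0.15; limma, Benjamini-Hochberg adjusted p = 0.141). Neither gene was called. Of the 15 tested genes 5, including these 2, were lower without overlap and 0 were higher, against 22.2% and 19.4% of all genes tested. Nothing is read from counts this small.

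In fatty acid oxidation, the opposite flux, 15 genes were tested and 0 were called. At an unadjusted p under 0.05 in limma 1 was higher (Acadl), against 6.39% of all genes tested. At that threshold 2 were lower, Decr1 and Ppargc1b (log2 difference -0.49, SE 0.16), against 6.95%. Nothing is read from counts this small. Acadl, the long-chain acyl-CoA dehydrogenase, was at 35.5 and 37.6 FPKM in WT and at 65.9 and 72.7 FPKM in Ets1-/- B cells, a ratio of 1.90. The log2 difference of 0.90 (SE 0.14) was below the 2-fold minimum and its adjusted p was 0.0562 (limma, Benjamini-Hochberg). Decr1, a reductase for the oxidation of unsaturated fatty acids, was at 6.82 and 6.92 FPKM in WT and at 4.44 and 3.81 FPKM in Ets1-/- B cells, a log2 difference of -0.62 (SE 0.15; limma, Benjamini-Hochberg adjusted p = 0.143). Among 18 other genes of fatty acid synthesis and activation, 13 were tested, 0 were called and 0 had an unadjusted p under 0.05, and the largest differences were those of Acsl1 (0.33, SE 0.14) and Tecr (0.26, SE 0.15).

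**Figure D3:**
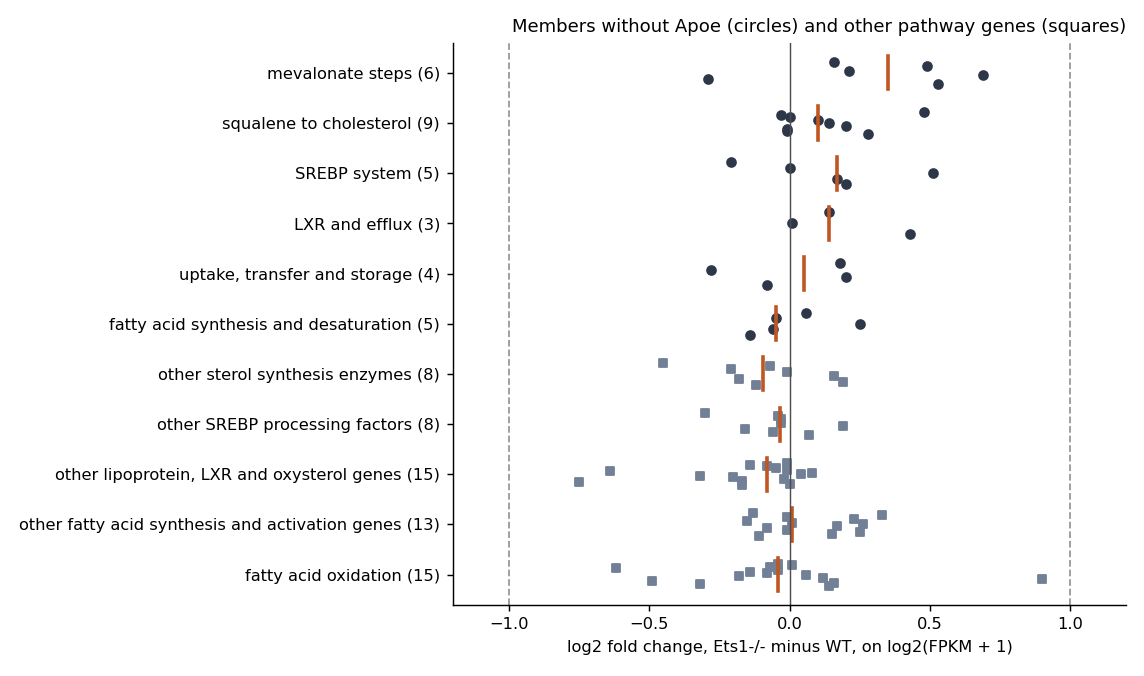
Log2 difference (Ets1-/- minus WT, on log2(FPKM + 1)) of the 32 tested genes of the list other than Apoe (circles, by role) and of 59 tested genes from 5 further lists of the same pathways (squares), with the number of genes in brackets, the median of each row as an orange bar and dashed lines at a 2-fold change. All points lie within 2-fold, between -0.75 for Pltp and 0.90 for Acadl.

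The genes beside Apoe on chromosome 7 were not called. Of 9 neighbors 3 were tested and limma called 0, with 0 at an unadjusted p under 0.05 and the lowest interval bound at -0.61. Tomm40 lies on the minus strand like Apoe, and its 3′ end at 20286662 of mm9 is next to the 5′ end of Apoe at 20284515. Tomm40 was at 42.4 and 38.6 FPKM in WT and at 33.1 and 47.9 FPKM in Ets1-/- B cells. Relb had a log2 difference of -0.17 (SE 0.17) and Clptm1 one of 0.02. The apolipoprotein genes Apoc1, Apoc2 and Apoc4 of the same cluster were between 0 and 0.660 FPKM in all libraries, so Apoe was the one apolipoprotein gene of the cluster above 1 FPKM.

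Macrophages express Apoe at high levels, so their markers are given beside it. Of 19 macrophage markers, 13 were tested, and limma called 0 lower and 1 higher. The exception is Emr1, the gene of F4/80, at 2.35 and 2.63 FPKM in WT and 23.5 and 37.2 FPKM in Ets1-/- B cells (log2 difference 3.13, SE 0.24; limma, Benjamini-Hochberg adjusted p = 0.00969). The summed level of the 19 markers was 80.7 and 39.8 FPKM in WT and 171 and 106 FPKM in Ets1-/- B cells, in large part from Lyz2, which neutrophils also express, at 42.2 and 18.0 FPKM in WT and 102 and 45.7 FPKM in Ets1-/- B cells. Without Emr1 and Lyz2 the sums were 36.2 and 19.2 FPKM in WT and 45.0 and 23.4 FPKM in Ets1-/- B cells. The C1q genes (C1qa, C1qb and C1qc), which with Csf1r mark tissue macrophages, together had 11.7 and 4.81 FPKM in WT and 15.1 and 7.15 FPKM in Ets1-/- B cells. Csf1r was at 2.35 and 0.999 FPKM in WT and at 1.86 and 0.876 FPKM in Ets1-/- B cells. Cd68 had means of 5.42 FPKM in WT and 5.27 FPKM in Ets1-/- B cells, and the genotypes overlapped for both genes. Of the 13 tested markers, 11 had a log2 difference above 0. The 2 below 0 were Csf1r (-0.16) and Cd68 (-0.06). The C1q genes, Csf1r and Cd68 were all higher in replicate 1 of each genotype. No marker of the list was at 0 in all libraries. The genotypes overlapped for each of the 3 C1q genes, with intervals of the log2 difference from -0.86 to 1.61. The part of macrophages in the difference of Apoe was not tested.

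Markers of marginal zone B cells, which carry much CD21 and little CD23 and lie outside the sort gate, had lower values in Ets1-/- B cells for some genes and higher values for 1. Of 8 such genes 0 were called, and 4 had an unadjusted p under 0.05 in limma, all lower, where 6.95% of all genes tested were lower at that threshold. Cr2, which encodes CD21, was at 102 and 116 FPKM in WT and at 65.1 and 30.0 FPKM in Ets1-/- B cells. Asb2 was at 1.96 and 2.38 FPKM in WT and at 0.532 and 0.302 FPKM in Ets1-/- B cells, and Dtx1 at 63.6 and 78.9 FPKM and at 48.8 and 40.8 FPKM. Asb2 reached a mean of 1 FPKM only in WT, so nothing is read from its direction. Cd36, a scavenger receptor for lipids, had a WT mean 1.99 times its Ets1-/- mean. For these 4 genes, named for their lower values, WT replicate 2 was the highest and Ets1-/- replicate 2 the lowest library. Myof was higher without overlap, at 4.43 and 5.45 FPKM in WT and at 11.8 and 6.33 FPKM in Ets1-/- B cells. The genotypes overlapped for Cd1d1, Cd9 and S1pr3, and the summed level of all 8 was 215 and 253 FPKM in WT and 174 and 107 FPKM in Ets1-/- B cells. The part of marginal zone B cells in the difference of Apoe was not tested.

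**Figure D4:**
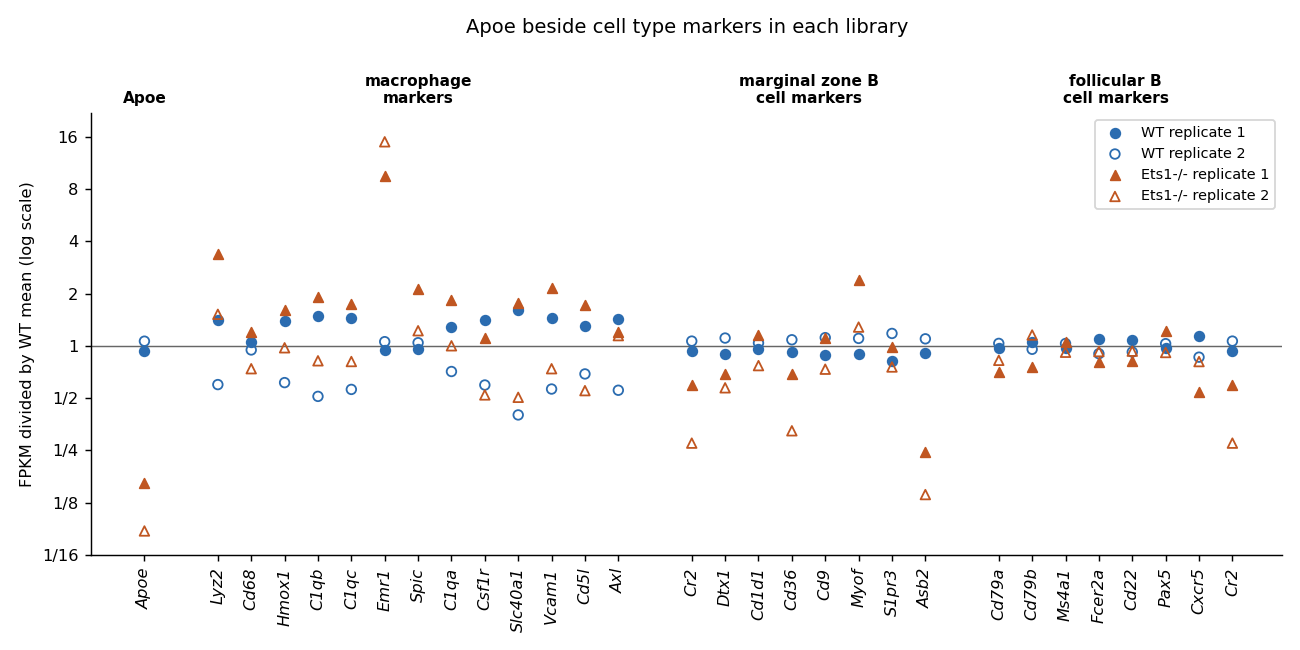
FPKM divided by the WT mean, on a log axis, for Apoe and for tested markers of macrophages, marginal zone B cells and follicular B cells (8 of the 9 on the last list), with WT libraries as blue circles and Ets1-/- libraries as orange triangles (filled for replicate 1, open for replicate 2); Cr2 is on both B cell lists. Apoe is low in both Ets1-/- libraries, Emr1 is high, and of the marginal zone markers Cr2, Cd36, Dtx1 and Asb2 are lower and Myof is higher without overlap.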

How the data were processed

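RNA-seq libraries of sorted splenic follicular B cells, 2 from WT and 2 from Ets1-/- mice, were analyzed. The authors aligned the reads to mm9 with TopHat2 2.0.13 and deposited FPKM values made with Cuffdiff, with 1 value for each gene symbol. The Cuffdiff version, the gene annotation and any scaling between libraries are not given in the sources used here. Symbols listed more than once (4 of the 23309 entries in a library) were left out. Read counts were not used, so depth was judged only relative to WT replicate 1, from FPKM values under 0.05.

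The fit used R 4.3.3 and the package limma 3.58.1, with lmFit and a trended eBayes, over 10949 genes whose mean reached 1 FPKM in WT or Ets1-/- B cells. It was made on log2(FPKM + 1), which understates changes of low genes. Benjamini-Hochberg adjustment ran over all of these genes. A gene was called at a log2 fold change of at least 1 in size and an adjusted p of 0.05 or less. The p-values set the difference between the genotypes against the spread between replicates, which eBayes moderates across genes. They apply to these samples only. The script was tested on simulated data.

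Gene positions and exon overlaps are those of GENCODE M1 on NCBIM37 (mm9), which held 37 of the 38 symbols, and Hmgcs1 was not matched. Promoter windows are RefSeq's on GRCm38.p6. The 38 genes and all gene and marker lists were chosen with earlier results of these data known. All 38 genes are named, as are the genes called or, failing that, the 2 with the largest difference in each further list (some of these genes and markers are not reported here), and the markers with the highest levels. Marker genes other than these, and Clptm1, the Apoc genes, Ctsb and Ppargc1b, were named after their values were seen. Alternatives covered the pseudocount, the filter, scaling, the replicate block, variance estimation, thresholds and each replicate left out. The other steps used Python 3.11.15, pandas 2.3.3 and numpy 2.4.6.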

Additional observations from a re-analysis of the deposited data

How the results depend on the processing

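The finding that 0 of the 37 genes other than Apoe were called, lower or higher, held in limma under every alternative run. The count of 0 for the 5 further pathway lists and the neighbors of Apoe held under the alternatives run for them, which did not include other thresholds on p or fold change. Same-numbered replicates deviated in opposite directions (correlation -0.207 across genes), and the labels give no other sign that the numbers pair the samples. A block for the replicate number gave 266 called genes over the whole table in place of 186. A block that crossed the pairing, chosen after seeing the data, gave 409. The count over all genes was 75 with no filter on low values, 106 with a mean FPKM of at least 5, 305 with robust variance estimation and 312 at an adjusted p of 0.10. It was 99 without WT replicate 1, 107 without WT replicate 2, 111 without Ets1-/- replicate 1 and 116 without Ets1-/- replicate 2, where fewer samples remain. Under quantile normalization the sign turned for Lss (0.05), Hsd17b7 (0.02) and Srebf1 (-0.01).

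With 1 library left out in turn the sign turned for 13 genes, all of them not called, and the log2 fold changes ranged from -0.78 to 0.20 for Idi1, -0.01 to 0.22 for Fdft1, -0.19 to 0.18 for Lss, -0.10 to 0.07 for Hsd17b7, -0.19 to 0.13 for Ebp, -0.13 to 0.14 for Dhcr7, -0.32 to 0.32 for Srebf1, -0.01 to 0.36 for Srebf2, -0.02 to 0.41 for Scap, -0.16 to 0.18 for Abcg1, -0.36 to 0.20 for Soat1, -0.22 to 0.12 for Acly and -0.29 to 0.17 for Fasn. The cause of these shifts was not tested.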
